A study of Mus musculus with 9 samples.

Results

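Ifi27, Ifi27l2a, Ifi44, Ifi35, Nmi, Rtp4, Xaf1 and Tor3a are 8 interferon-induced genes that code for small or little-studied effector proteins. They were chosen by name from the 54532 gene identifiers of a kidney RNA-seq series, and all 8 passed the filter on low counts that left 16646 genes for testing. PolyA+ RNA of whole mouse kidney was sequenced in 3 groups of 3 libraries. The first group was wild-type (WT) mice, for which the labels give no treatment. The second was Trex1-/- mice given PBS, which the study's methods describe as the Tween 80 vehicle, and the third was Trex1-/- mice given SN-011, a small-molecule antagonist of STING, both for 2 weeks by daily intraperitoneal injection begun at about a month of age. All animals were on the C57BL/6J background and kept specific pathogen-free. The Trex1-/- mice were bred from heterozygous parents and lack the exonuclease in every cell, while WT mice were purchased at several weeks of age, so that they were not littermates, and how old they were at dissection is not given in the sources used here. Neither the labels nor the methods give the sex of the animals, and nothing says that same-numbered libraries share an animal or a litter. It is also not stated that each library is 1 animal, so that the p-values below measure the spread between these libraries.

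TREX1 degrades DNA in the cytosol. Where it is missing, self DNA can engage the sensor cGAS, whose product cGAMP activates STING and, through TBK1 and IRF3, the transcription of type I interferon. Secreted interferon then acts on IFNAR1 and IFNAR2 and, through JAK kinases and the transcription factors they activate, switches on a broad set of target genes in most cell types, the kidney epithelium included. The 8 genes belong to this last layer. IFI27 and IFI27L2A are small hydrophobic proteins of mitochondria and the nuclear envelope. IFI44 is a cytoplasmic protein with antiviral activity. RTP4 is a zinc-finger chaperone that carries G protein-coupled receptors to the cell surface and also binds RNA. NMI and IFI35 are partners in 1 complex, NMI having been named for its binding to N-MYC and STAT proteins. XAF1 binds XIAP and counters its inhibition of caspases, and TOR3A is an ATPase of the torsin family in the endoplasmic reticulum.

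In the GENCODE vM21 annotation of GRCm38, the 8 genes lie on 6 chromosomes. Ifi27 (ENSMUSG00000064215, chr12:103434211-103440239, plus strand) and Ifi27l2a (ENSMUSG00000079017, chr12:103442167-103443680, minus strand) are neighbours. Xaf1 (ENSMUSG00000040483, chr11:72301629-72313733, plus strand) and Ifi35 (ENSMUSG00000010358, chr11:101448407-101458698, plus strand) share a chromosome. Ifi44 (ENSMUSG00000028037) is at chr3:151730922-151749960 and Nmi (ENSMUSG00000026946) at chr2:51948487-51973494, both on the minus strand. Rtp4 (ENSMUSG00000033355) is at chr16:23520291-23614222 on the plus strand and Tor3a (ENSMUSG00000060519) at chr1:156653617-156674356 on the minus strand. All are protein-coding. No run of 100 bases in the transcripts of 6 of the genes, Ifi27 and Ifi27l2a included, occurred in another gene's transcripts. In Rtp4, 13.9% of the exonic bases overlapped Gm45338 on the same strand, and in Ifi35 16.8% overlapped Gm11626 on the opposite strand. These overlapping genes had 0 to 11 and 1 to 6 counts per library.

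The sequence before the start site was examined because interferon-activated factors bind there. RefSeq's GRCm38.p6 table held an upstream sequence for 4 of the 8 genes, namely Ifi44, Ifi35, Nmi and Xaf1, and the 250 bases before each start were searched on both strands. The core of the interferon-stimulated response element, GAAA repeated after 2 bases of any kind, was found in 0 of the 4, against 2.98% of 32851 upstream sequences in the table. The form with 3 bases between the repeats was found in 1 (Ifi44), against 2.38%. The shorter core bound by interferon regulatory factors, AANNGAAA, a search added after the data had been seen, was found in 3 (Ifi44, Nmi and Xaf1), against 21.3%. A match is a description of letters and not a bound site. The 3 windows below, 30 bases each and read in the direction of the gene, show motif matches in capitals. A further match of the shorter core in Ifi44, 9 to 2 bases before the RefSeq start, lies outside its window. The capitals run from 55 to 41 bases before the RefSeq start in Ifi44, where matches overlap, and from 174 to 167 bases before it in Nmi and from 17 to 10 bases before it in Xaf1. GENCODE begins Ifi44 and Nmi further upstream than RefSeq, so that 18 bases of the Ifi44 window and all 30 of the Nmi window are exonic there, while the Xaf1 window ends at the base before the gene in both.
Ifi44, chr3:151749943-151749972, minus strand: tacagagTTTCAGTTTTCGTTTcccgagca
Nmi, chr2:51973364-51973393, minus strand: atttttctagcAAAGGAAAagttcacatct
Xaf1, chr11:72301599-72301628, plus strand: gctgggcaaacacTTTCAGTTttgttttcc

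The libraries held 16118813 to 21928965 counts. Trex1 itself had 0 counts in all 9 libraries, WT included. Its span lies within that of Atrip, and featureCounts by default leaves out a pair that fits exons of both. Whether this accounts for the 0 counts was not tested. Trex1 therefore gave no check of the genotype. Counts at Atrip, the gene that spans it, ran from 14.4 to 16.1 CPM (counts scaled to the TMM-adjusted library size) in WT and from 37.1 to 48.5 in the 6 Trex1-/- libraries. Proximal tubule markers were high in every library, with a summed level of 7080 to 9097 CPM, as the labelled tissue would have. The groups differed in sex-linked transcripts. Y-linked reads were present in 1 of 3 WT libraries (replicate 3), in 3 of 3 Trex1-/- PBS libraries and in 1 of 3 SN-011 libraries (replicate 2), and Xist was at 434 to 503 CPM, here over the raw library total, in the others. Results of the 8 genes are therefore also given with a term for Y-linked reads. Without SN-011 replicate 2, the count of all genes called between SN-011 and PBS went from 0 to 519, so that results with and without this library are given where they rest on it.

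Levels were first compared between genes, per kilobase of exonic length, since longer transcripts collect more reads. This length joins the exons of all annotated transcripts of a gene, and which transcripts the kidney used was not tested. The order between genes therefore depends on the annotation. Before the division, Xaf1 was at 9.28 CPM and Rtp4 at 9.85 CPM in WT. In WT kidneys, Ifi27 was the most abundant of the 8 at 73.8 ± 16.8 CPM per kb (SD, n = 3), followed by Ifi27l2a at 29.5 ± 11.6. Xaf1 was the least abundant at 1.98 ± 0.403 CPM per kb. Between these, Ifi35 (7.83 ± 0.971) and Nmi (6.64 ± 1.38) were not separated, nor were Tor3a (4.86 ± 0.122) and Rtp4 (4.62 ± 0.771), and Ifi44 stood at 3.51 ± 0.309. Ifi27, Ifi27l2a and Xaf1 kept the first, second and last place in the Trex1-/- groups, although under SN-011 Xaf1 (4.03 ± 0.808 CPM per kb) was not separated from Ifi44 (6.67 ± 2.16). Rtp4 ranked 6 in WT and 3 in both Trex1-/- groups, with 22.7 ± 3.75 CPM per kb under PBS and 14.2 ± 3.12 under SN-011. Under PBS it lay above Ifi35 (15.5 ± 1.24) without overlap, whereas under SN-011 it overlapped Ifi35 (12.8 ± 1.13). Under PBS, Ifi35, Nmi and Ifi44 each overlapped the next in order (Nmi, Ifi44 and Tor3a), while Tor3a and Xaf1 were separate.

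**Figure D1:**
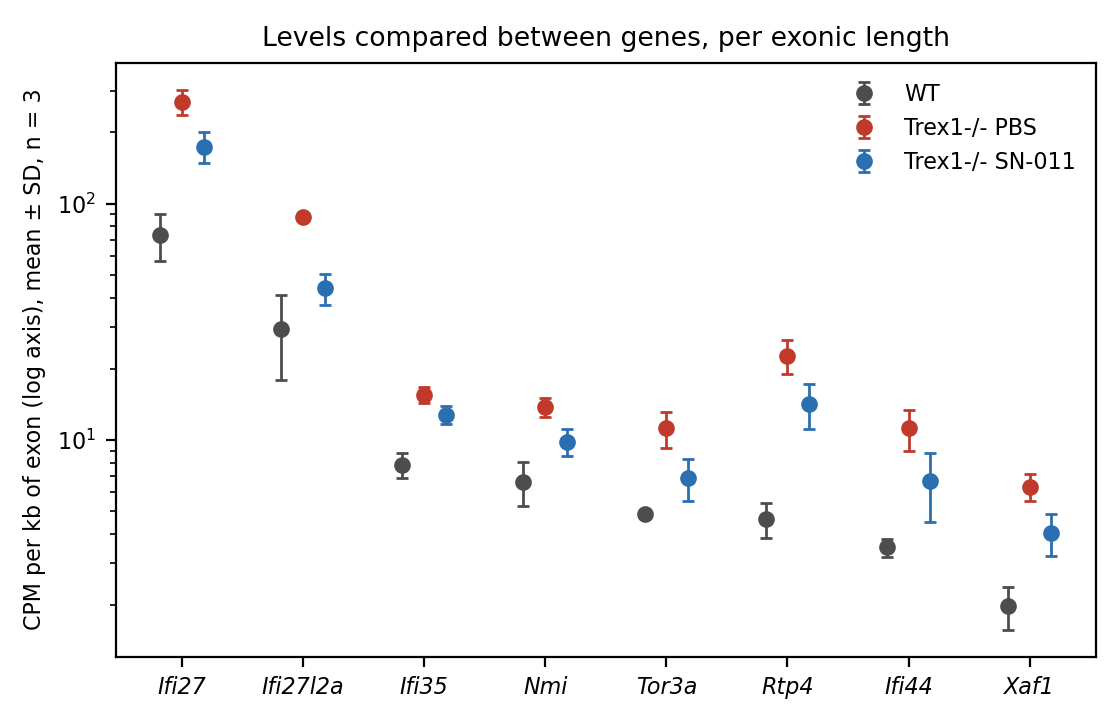
Mean level of each gene in CPM per kb of exonic length (log axis) with its SD over 3 libraries, in WT, Trex1-/- PBS and Trex1-/- SN-011 kidneys, with genes ordered by their WT level. Ifi27 and Ifi27l2a lie above the other genes in each group, and Rtp4 moves from rank 6 in WT to rank 3 in both Trex1-/- groups.

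The first question was how the 8 genes differ between Trex1-/- kidneys given PBS and WT kidneys. All 8 rose significantly, by 0.99 to 2.30 on the log2 scale (median 1.63), and in each of the 8 the lowest Trex1-/- library lay above the highest WT library. Among all 16646 genes tested, 1.44% were called higher in this comparison at an adjusted p under 0.05 and 13.1% were higher without overlap, and the median change was 0.00. Since the genes are known interferon targets, their joint rise is a description of this group and not independent evidence about it. Whole kidney was sequenced, so that more cells of a type that expresses a gene and more RNA per cell cannot be told apart.

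Ifi27 was at 89.0, 99.8 and 136 CPM in WT replicates 1, 2 and 3 and at 341, 435 and 412 CPM in the corresponding Trex1-/- PBS libraries. The lowest Trex1-/- value was far above the WT range. Its log2 fold change was 1.87 (SE 0.178, edgeR quasi-likelihood adjusted p = 3.96e-04). Ifi27l2a, its neighbour and paralogue, was at 10.5, 10.7 and 19.9 CPM in WT and at 40.3, 41.6 and 40.5 CPM in Trex1-/- PBS. WT replicate 3 stood well above the other WT libraries, whereas the Trex1-/- PBS libraries were nearly equal (SD 0.695 CPM). The change was 1.58 (SE 0.224, edgeR adjusted p = 0.00461), and 1.95 without WT replicate 3.

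Among the antiviral effectors, Rtp4 was at 8.82, 8.99 and 11.7 CPM in WT and at 39.2, 52.9 and 53.1 CPM in Trex1-/- PBS. This was the largest rise of the 8, with a log2 fold change of 2.30 (SE 0.191, edgeR adjusted p = 2.12e-04), which corresponds to 4.92-fold. Its 95% interval, 1.87 to 2.72, did not overlap those of Ifi35, Nmi and Tor3a, although differences between genes were not tested. Ifi44 was at 19.4, 21.9 and 23.1 CPM in WT and at 64.4, 84.0 and 57.7 CPM in Trex1-/- PBS. The Trex1-/- libraries were spread more widely than the WT ones, with replicate 2 the highest. Its log2 fold change was 1.68 (SE 0.231, edgeR adjusted p = 0.00389).

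The partners Nmi and Ifi35 rose least. Nmi was at 11.9, 11.5 and 16.5 CPM in WT and at 24.6, 28.9 and 29.2 CPM in Trex1-/- PBS, a log2 fold change of 1.05 (SE 0.157, edgeR adjusted p = 0.00628). Ifi35 was at 11.7, 13.9 and 15.0 CPM in WT and at 24.3, 28.1 and 27.9 CPM in Trex1-/- PBS, a log2 fold change of 0.99 (SE 0.121, edgeR adjusted p = 0.00184). These changes were close in size, and the groups were separate in each gene. Xaf1 was at 8.06, 8.31 and 11.5 CPM in WT and at 25.8, 33.5 and 29.8 CPM in Trex1-/- PBS, with a log2 fold change of 1.68 (SE 0.187, edgeR adjusted p = 0.00102). Tor3a was at 19.4, 18.5 and 18.7 CPM in WT and at 41.5, 52.0 and 37.2 CPM in Trex1-/- PBS, with a log2 fold change of 1.20 (SE 0.160, edgeR adjusted p = 0.00293). Tor3a had the tightest WT libraries of the 8, and it was the only one in which WT replicate 3 was not the highest WT library.

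**Figure D2:**
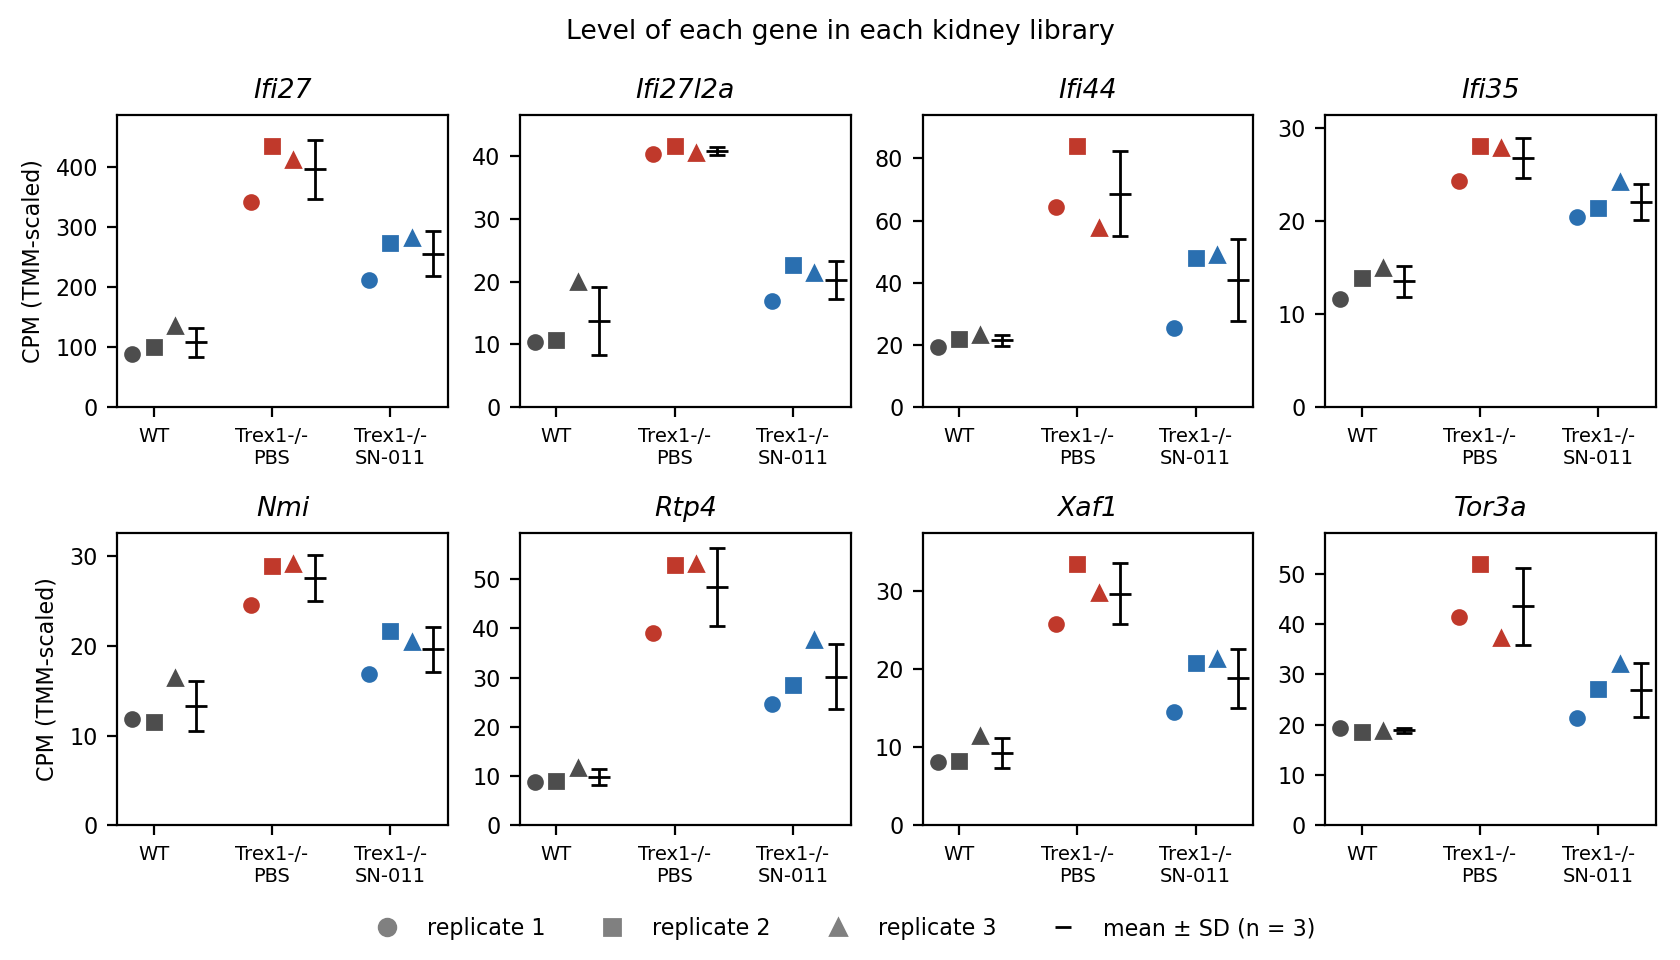
Level of each gene in CPM in each of the 9 kidney libraries, by group, with the marker shape giving the replicate number and the bar the mean and SD over 3 libraries (each panel starts at 0). In every panel the Trex1-/- PBS libraries lie above both other groups, and SN-011 replicate 1 is the lowest SN-011 library.

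All 8 calls held in each of the 19 alternative fits, in which the highest adjusted p was 0.0413 (Nmi). With a term for Y-linked reads, the rise was 1.25 for Ifi27l2a (edgeR adjusted p = 0.00504), 0.83 for Nmi (0.0195) and 0.93 for Ifi35 (0.0126), and it stayed between 1.20 and 2.23 for the other genes. WT replicate 3, the WT library with Y-linked reads, was the highest WT library in 7 of the 8 genes, against 38.3% of all genes tested.

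The second question was whether the STING antagonist lowered the 8 genes in Trex1-/- kidneys. None was called at an adjusted p under 0.05. The log2 fold changes of SN-011 against PBS were negative for all 8, from -1.01 to -0.28 (median -0.67, against -0.01 over all genes), and in each the highest SN-011 library lay below the lowest PBS library. Over all genes tested, 0% were called lower by edgeR and 8.41% were lower without overlap. The unadjusted p was under 0.05 for all 8 and for 1905 of the 16646 genes, and the smallest adjusted p of any gene was 0.147. By edgeR's exact test 2 of the 8 were called and by the DESeq2 Wald test 4, against 127 and 183 of all genes in either direction.

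Ifi27l2a had the largest difference. It was at 16.9, 22.6 and 21.4 CPM in SN-011 replicates 1, 2 and 3, against 40.3 to 41.6 CPM under PBS. All SN-011 libraries were well below the PBS range, and replicate 1 was within the WT range. The log2 fold change was -1.01 (95% interval -1.50 to -0.52, edgeR adjusted p = 0.210). Without SN-011 replicate 2 it was -1.10 and was called (edgeR adjusted p = 0.0440, against 0.00296 to 0.650 over the 19 alternatives), the only gene of the 8 for which leaving out a library gave a call. Ifi27 was at 212, 273 and 281 CPM, against at least 341 CPM under PBS and at most 136 CPM in WT. The 3 groups were thus separate, and the log2 fold change against PBS was -0.63 (-1.01 to -0.25, edgeR adjusted p = 0.250).

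Ifi44 was at 25.6, 47.9 and 49.1 CPM under SN-011. Replicate 1 was close to the highest WT library (23.1 CPM), while the other SN-011 libraries were nearer to the lowest PBS library (57.7 CPM). The log2 fold change was -0.75 (-1.25 to -0.25, edgeR adjusted p = 0.281), and without SN-011 replicate 1 it was -0.50. Rtp4 was at 24.6, 28.5 and 37.6 CPM, with replicate 3 just below the lowest PBS library (39.2 CPM). Its log2 fold change was -0.68 (-1.08 to -0.28, edgeR adjusted p = 0.248).

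Nmi was at 16.8, 21.7 and 20.4 CPM under SN-011, with a log2 fold change of -0.49 (-0.83 to -0.14, edgeR adjusted p = 0.289). Its partner Ifi35 was at 20.5, 21.4 and 24.2 CPM and showed the smallest difference of the 8, -0.28 (-0.54 to -0.02, edgeR adjusted p = 0.412). The highest SN-011 library of Ifi35 lay just under its lowest PBS library (24.3 CPM). Xaf1 was at 14.5, 20.8 and 21.3 CPM, a log2 fold change of -0.65 (-1.06 to -0.25, edgeR adjusted p = 0.252). Tor3a was at 21.4, 27.1 and 32.2 CPM, a log2 fold change of -0.70 (-1.05 to -0.35, edgeR adjusted p = 0.210). In both genes replicate 1 was the lowest, and the groups did not overlap.

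SN-011 replicate 1 was the lowest SN-011 library in 8 of the 8 genes and in 32 of 32 other interferon targets, against 30.3% of all genes tested. Replicate 1 was also the lowest library of its group in 6 of the 8 genes in WT and in 6 under PBS, against 31.2% and 31.1% of all genes tested and 15 and 14 of the 32 targets. Among the targets, replicate 2 was the lowest equally often in WT (15), and replicate 3 more often under PBS (18). SN-011 replicate 1 also had the lowest summed level of 17 leukocyte markers among the SN-011 libraries, 491 CPM against 925 and 814 CPM in replicates 2 and 3. Without it, the log2 fold changes of the 8 genes against PBS ran from -0.89 (Ifi27l2a) to -0.23 (Ifi35), and without replicate 2 they ran from -1.10 to -0.27. The PBS libraries all carried Y-linked reads and only 1 SN-011 library did. With a term for these reads the changes were smaller in most genes, at -0.40 for Ifi27, -0.62 for Ifi27l2a, -0.26 for Nmi and -0.43 for Xaf1, while that of Tor3a was -0.70. None was called in that fit (lowest edgeR adjusted p 0.298, for Ifi27l2a).

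**Figure D3:**
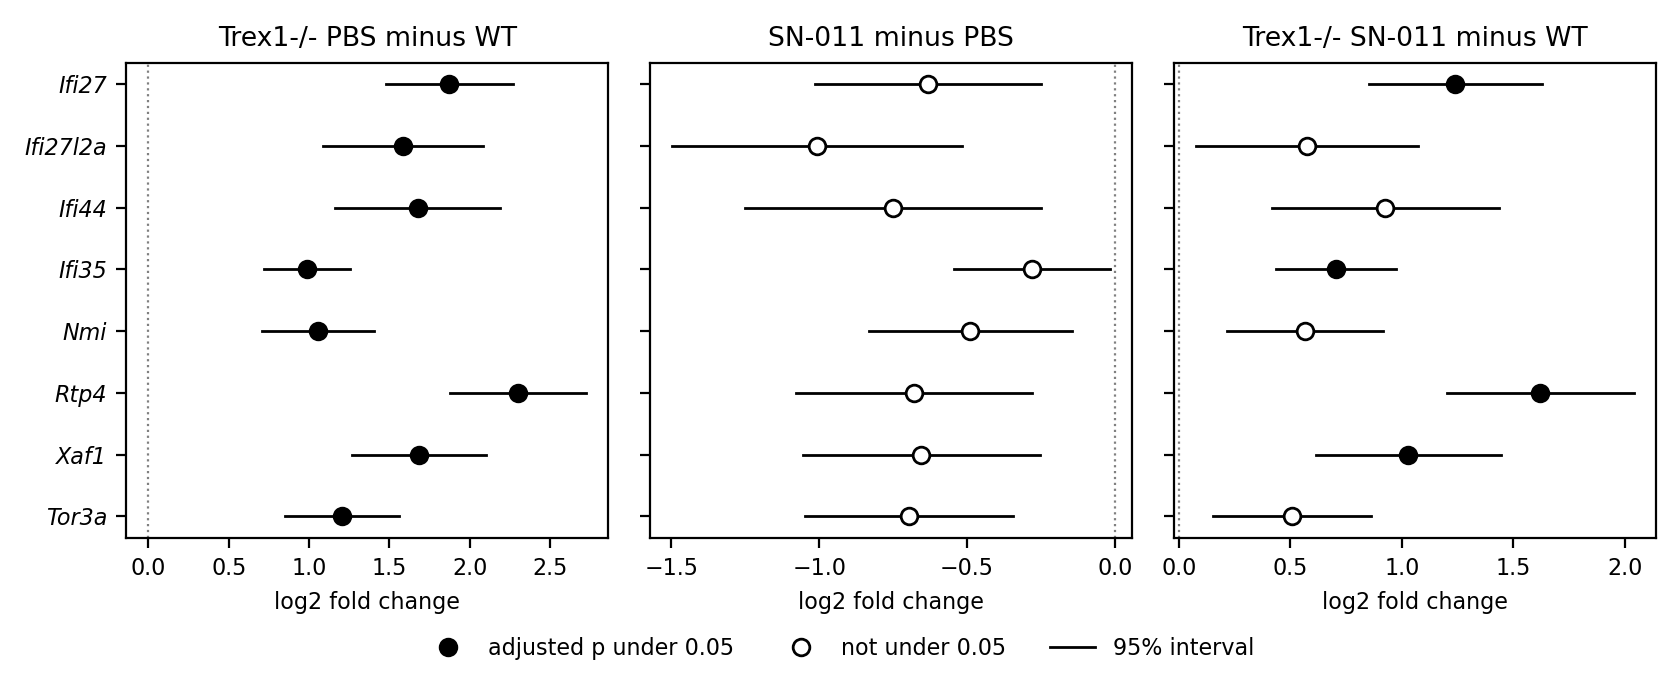
Log2 fold change of each gene in the 3 comparisons, with its 95% interval from the edgeR fit. Filled points have an adjusted p under 0.05, and the axes differ between panels. All 8 points are filled for Trex1-/- PBS against WT, none for SN-011 against PBS, where all lie below 0, and those of Ifi27, Ifi35, Rtp4 and Xaf1 for SN-011 against WT.

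The third comparison asked how far the SN-011 kidneys remained from WT. It shares its groups with the other comparisons, so that its values are not independent of them. Of the 8 genes, 4 were called higher than WT and 7 were higher without overlap, against 0.823% and 11.8% of all genes tested. Rtp4 was highest over WT at 1.62 (SE 0.189, edgeR adjusted p = 0.00432), a call that held in all 19 alternatives. Ifi27 was higher by 1.24 (SE 0.175, edgeR adjusted p = 0.0110), Xaf1 by 1.03 (SE 0.187, adjusted p = 0.0308) and Ifi35 by 0.71 (SE 0.121, adjusted p = 0.0260). The other 4 had positive changes that did not pass the test. These were 0.93 for Ifi44 (edgeR adjusted p = 0.0847), 0.57 for Nmi (0.106), 0.51 for Tor3a (0.144) and 0.58 for Ifi27l2a (0.217). Ifi27l2a was the gene in which the groups overlapped, WT replicate 3 (19.9 CPM) lying above SN-011 replicate 1 (16.9 CPM). Without WT replicate 3 its change was 0.94 and was called (edgeR adjusted p = 0.0120, against 0.0120 to 0.488 over the alternatives), as was that of Nmi at 0.74 (0.0342, against 0.0283 to 0.302). Ifi44 was called in 5 of the 19 alternatives. Without SN-011 replicate 1 its change was 1.17 (edgeR adjusted p = 0.00683, against 0.00351 to 0.221 over the alternatives). With the term for Y-linked reads, which raised the calls over all genes in either direction from 213 to 656, 7 of the 8 were called, Tor3a being the exception at 0.51 (edgeR adjusted p = 0.105, against 0.0739 to 0.325 over the alternatives). Without WT replicate 1 or WT replicate 2, 1 was called (Rtp4), and without Trex1-/- PBS replicate 2, 2 were called.

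Set side by side, the genes differed in how their values under SN-011 stood between WT and PBS. Ifi35 was 0.71 above WT of an original 0.99, and Rtp4 1.62 of 2.30. Ifi27l2a was 0.58 above WT of 1.58, and Tor3a 0.51 of 1.20. Some of these values moved with the fit. Ifi27l2a was 0.94 of 1.95 without WT replicate 3. With the term for Y-linked reads it was 0.62 of 1.25, while Tor3a stayed at 0.51 of 1.20. Without SN-011 replicate 1, Tor3a was 0.65 of 1.20. These pairs share the WT libraries, and the difference between genes was not tested.

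Across the 9 libraries the 8 genes varied together. Pearson's r of log2 CPM ran from 0.883 (Ifi35 and Tor3a) to 0.994 (Ifi27 and Xaf1) over the 28 pairs, with a median of 0.945. The 9 libraries fall into 3 groups with different means, which all pairs share. After the mean of each group was subtracted, r ran from 0.241 (Ifi27l2a and Tor3a) to 0.966 (Ifi27 and Xaf1), with a median of 0.736. Tor3a then went most closely with Ifi44 (0.881), and Ifi27l2a with Nmi (0.917). The points are few and share depth and library, so that r is given as a description only.

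**Figure D4:**
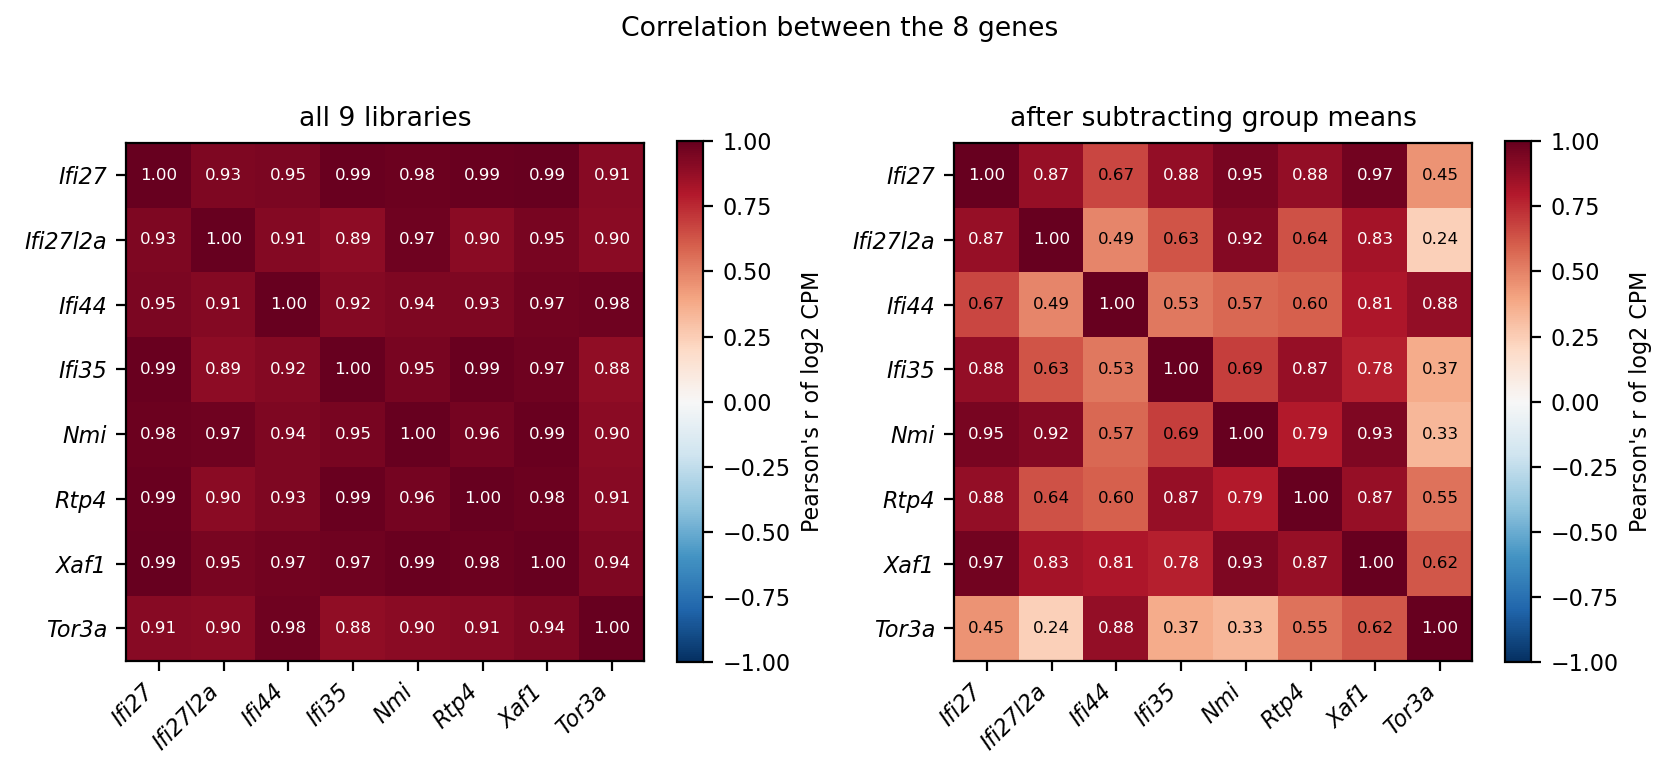
Pearson's r of log2 CPM between each pair of the 8 genes over 9 libraries, before and after the mean of each group was subtracted. All pairs are at 0.883 or higher on the left, and on the right the values of Tor3a with Ifi27l2a, Nmi, Ifi35 and Ifi27 are the lowest.

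Outside the 8, the pair of genes whose levels went most closely with each over the 9 libraries was also listed. For Ifi27 these were Isg15, the ubiquitin-like modifier (r = 0.996), and Apol9b (0.994). For Xaf1 they were Irf7, the factor that amplifies interferon transcription (0.996), and Isg15 (0.996). Rtp4 was nearest to Usp18, which removes ISG15 and dampens receptor signalling (0.995), and to H2-Q7, a non-classical MHC class I gene (0.992). Ifi35 was nearest to H2-Q7 (0.992) and to Cmpk2, a mitochondrial nucleotide kinase (0.991), and Ifi44 to Samhd1, which hydrolyses deoxynucleotides (0.990), and the GTPase gene Gbp5 (0.990). Nmi was nearest to Il2rg, the common cytokine receptor chain of lymphocytes (0.994), and Parp10 (0.991), Ifi27l2a to Parp10 (0.979) and Ifitm3 (0.975), and Tor3a to Cd274, which codes for PD-L1 (0.991), and Dhx58 (0.988). These genes were picked for the highest r among all genes tested, so that a high r follows from the choice. After the mean of each group was subtracted, r ran from 0.813 (Ifi27l2a and Ifitm3) to 0.978 (Xaf1 and Irf7).

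Relatives of the 8 genes were read next. Of 15 genes of the same families or partner families, 14 were matched, 10 were tested and 1 was called in Trex1-/- PBS against WT, Tor1aip1, a membrane activator of torsin ATPases, at 0.39 (SE 0.0781, edgeR adjusted p = 0.0327). Over all genes tested, 1.44% were called higher in that comparison. Of the 10 relatives, 7 had an unadjusted p under 0.05, against 2532 of the 16646 genes tested, and 8 had a positive change (median 0.21). Among the torsins themselves, the changes were 0.07 for Tor1a, 0.07 for Tor1b, -0.21 for Tor2a and -0.13 for Tor4a, against 1.20 for Tor3a, and none of these 4 passed the test. Tor1aip2 was at 0.26 (edgeR adjusted p = 0.138). XIAP, the partner of XAF1, was at 0.21 (edgeR adjusted p = 0.178), and the related inhibitors of apoptosis Birc2 and Birc3 at 0.21 and 0.33 (0.282 and 0.281). Rtp3, the receptor transporter of liver, was at 0.79 (edgeR adjusted p = 0.292). Ifi27l2b, which lies beside Ifi27 and Ifi27l2a, had at most 8 counts in a library, Ifi44l at most 12, Rtp1 at most 4 and Rtp2 0, so that these were not tested. Ifi27l1 was not matched. Between SN-011 and PBS 0 of the 10 were called (0 at an unadjusted p under 0.05), nor was any against WT. There 5 had an unadjusted p under 0.05, against 2998 of the 16646 genes tested.

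The other layers of the pathway were read from lists chosen with earlier results known. Of 20 interferon genes, 16 had 0 counts in every library and the others, Ifnk, Ifnz, Ifng and Ifnl3, had too few to be tested, so that a change in ligand RNA was not detectable at this depth. None of the 5 sensing genes was called in any comparison, 1 having an unadjusted p under 0.05 in each of those with SN-011. In Trex1-/- PBS against WT, 2 of them had an unadjusted p under 0.05, Cgas at 1.14 (edgeR adjusted p = 0.214) and Tbk1 at 0.24 (0.294), while Ikbke was at 0.15, Sting1 at 0.24 and Irf3 at 0.01. None of the 9 receptor and kinase genes was called either (1 at an unadjusted p under 0.05 in SN-011 against PBS, 0 in the other comparisons), their log2 fold changes in the same comparison being -0.24 for Il10rb, -0.10 for Ifnar1, -0.05 for Jak2, 0.03 for Ifnar2, 0.06 for Tyk2, 0.12 for Jak1, 0.18 for Ifngr1, 0.18 for Ifngr2 and 0.21 for Ifnlr1.

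Of 8 transcription factors downstream of the receptors, 5 rose significantly. Irf7 rose most, by 3.08 (SE 0.266, edgeR adjusted p = 2.37e-04), and Stat2 and Irf9, which code for subunits of the type I interferon complex, rose by 1.44 (edgeR adjusted p = 3.34e-04) and 0.86 (7.84e-04). Irf1 rose by 0.87 (edgeR adjusted p = 0.00945). Irf8, Irf5 and Irf2 did not pass the test, at 0.50, 0.38 and 0.14. Between SN-011 and PBS all 8 factors had negative changes and none was called (5 at an unadjusted p under 0.05), with Irf7 at -1.24 (edgeR adjusted p = 0.203). Against WT, 4 of the 8 factors were called higher under SN-011, Stat2, Irf9 and Irf7 among them.

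Of 32 other interferon targets, 31 rose in Trex1-/- PBS against WT, Samd9l being the exception (0.36, edgeR adjusted p = 0.233). Their median change was 2.24, against 1.63 for the 8 genes. Among the smallest p-values were those of the antiviral synthetase genes Oas2 (3.20, edgeR adjusted p = 4.84e-05) and Oas1a (2.83, 1.04e-04), of Usp18 (2.78, 7.58e-05) and of Ifit1, which binds foreign RNA caps (3.13, 1.04e-04). Between SN-011 and PBS, 0 of the 32 were called and all 32 were below 0 (31 at an unadjusted p under 0.05, median -0.80, against -0.67 for the 8 genes), while edgeR's exact test called 15 and the DESeq2 Wald test 18. Ifitm3, at -0.83, and Ifit1, at -1.14, had the smallest p-values there (edgeR adjusted p = 0.153 and 0.168). Against WT, 26 were called higher under SN-011, with a median of 1.35. Of the 5 negative regulators, Isg15 and Usp18 of which are also among the targets, 3 rose, the third being Trim21 (0.78, edgeR adjusted p = 0.00659), whereas Socs1 was at 1.30 (0.0782) and Socs3 at 0.59 (0.527).

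**Figure D5:**
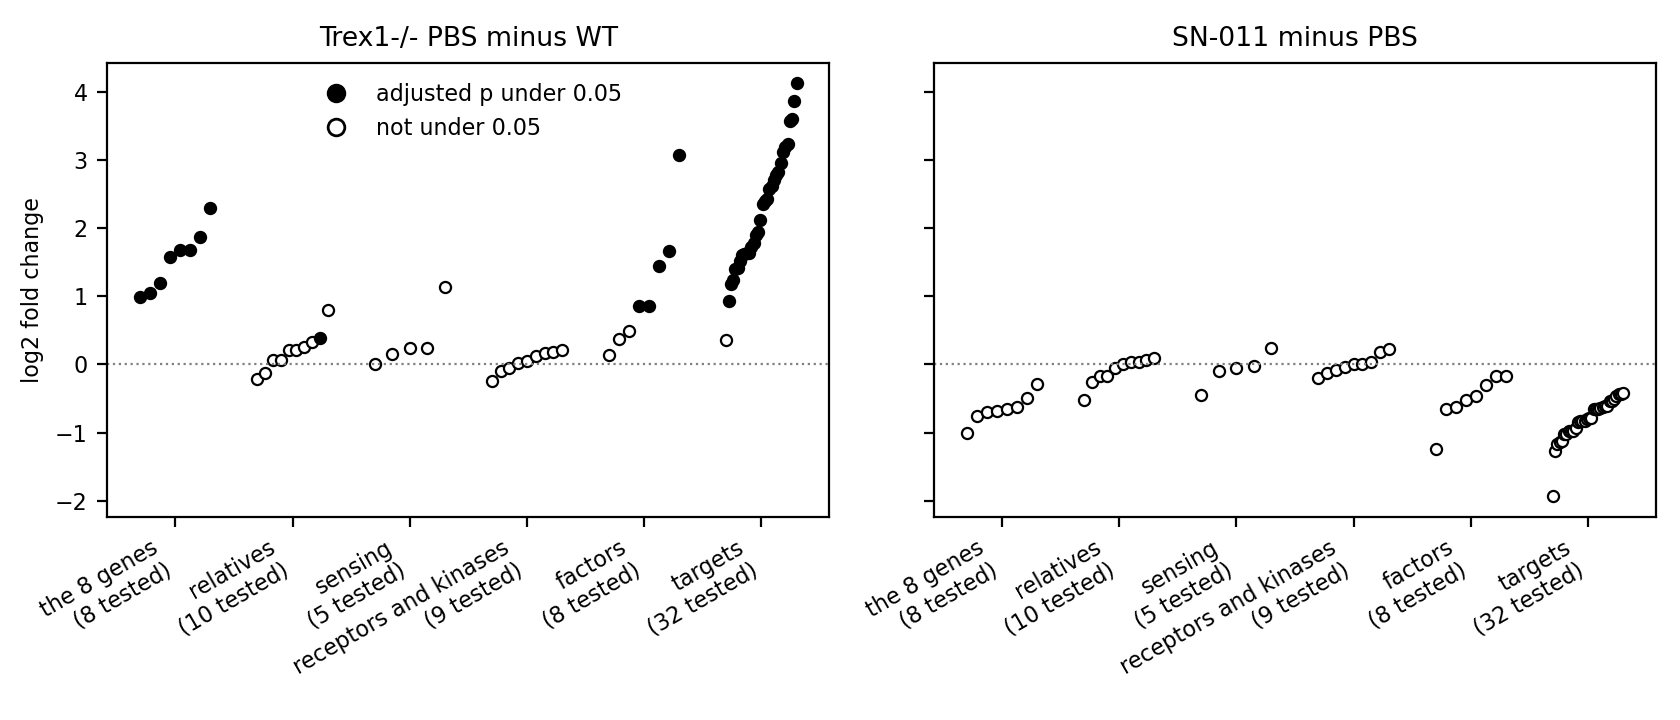
Log2 fold change of each tested gene of the 8 and of 5 pathway lists, in Trex1-/- PBS against WT and in SN-011 against PBS, with filled points for an adjusted p under 0.05 in the edgeR fit and genes sorted by value within each list. The 8 genes, 5 of 8 factors and 31 of 32 targets are filled on the left, 1 of 10 relatives and no sensing, receptor or kinase gene is, and on the right no point is filled.

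Markers of leukocytes and other cell types were read beside these results. Of 17 leukocyte markers, 15 were tested and 3 were called higher in Trex1-/- PBS than in WT, the monocyte marker Ly6c2 (2.76, edgeR adjusted p = 0.00256), the T-helper coreceptor Cd4 (1.61, 0.0329) and the antigen-presentation gene Cd74 (1.44, 0.0113). All 15 had a positive change in that comparison (median 1.06), and 11 had an unadjusted p under 0.05, against 2532 of the 16646 genes tested. Between SN-011 and PBS 0 of the 15 were called (5 at an unadjusted p under 0.05). The summed level of the 17 ran from 351 to 457 CPM in WT, from 852 to 1135 under PBS and from 491 to 925 under SN-011. Most of this sum was Cd74, which tubule cells can also express under interferon, and without it the ranges were 98.6 to 113, 147 to 172 and 89.1 to 144 CPM. The SN-011 range thus overlapped that of PBS in the full sum and that of WT without Cd74. The B-cell marker Ms4a1 had at most 17 counts in a library and was not tested. In Trex1-/- PBS against WT, 1 of 3 plasma cell markers was called higher (Jchain, 1.99, edgeR adjusted p = 0.0175). Of 6 proximal tubule markers, 1 was called lower there (Slc5a2, -0.71, edgeR adjusted p = 0.0163). In that comparison 0 of 6 markers of other nephron segments, 0 of 6 of endothelium and 0 of 2 tested of fat were called. Under SN-011 against WT, Ly6c2 (1.90, edgeR adjusted p = 0.0379) and Jchain (2.24, 0.0185) were called higher. The endothelial marker Plvap was called lower (-0.53, edgeR adjusted p = 0.0383), and Slc5a2 was not called (0.0867). Which cells carried the RNA of the 8 genes, and the part of these markers in their change, was not tested.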

How the data were processed

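PolyA+ kidney RNA was sequenced as 2 x 150-base pairs in 9 libraries. The authors trimmed the reads with Trimmomatic, aligned them with HISAT2 and counted uniquely mapped pairs per Ensembl gene with featureCounts, and the deposited values are these raw counts. The submitters' processing notes name mm10 (GRCm38), whereas tool versions and the strand setting of the counting are not given in the sources used here. Of 54532 identifiers, 54495 matched GENCODE vM21.

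Differential expression was computed with edgeR 4.0.16 under R 4.3.3. Low counts were removed with filterByExpr (minimum count 10, minimum total 15), and libraries were scaled by TMM and fitted in 1 quasi-likelihood model of all 9 libraries with a mean per group. P-values were two-sided and adjusted by Benjamini-Hochberg over 16646 genes, and a gene was called at an adjusted p under 0.05. CPM are counts over TMM-scaled library sizes. Log2 CPM for correlations used a prior count of 2. The scripts were tested on simulated counts. Differences between replicate libraries exceeded counting noise (7.18 to 68.1 times its variance), so that none was counted as a duplicate.

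The 8 genes, the lists and the term for Y-linked reads (a library with over 10 CPM, over its raw total, of Ddx3y, Kdm5d, Eif2s3y and Uty) were chosen with earlier results of these data known. Beside the 8, genes named were the 2 nearest to each by r, the relatives, the pathway genes not called where counted, and from each list up to 4 of lowest p between Trex1-/- PBS and WT and up to 2 between SN-011 and PBS, not all of which are printed. Atrip, Irf1, Socs3, Ms4a1 and the overlapping Gm45338 and Gm11626 fall outside this rule and were named after their values were seen.

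Alternatives were DESeq2 1.42.0 or upper-quartile scaling, no filter beyond 1 read or a mean of at least 50 counts, edgeR's exact test, the DESeq2 Wald test, limma 3.58.1 voom, only the 6 libraries compared, a replicate block, the Y-linked term, and leaving out each library. Some results of the lists are not reported here.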

Additional observations from a re-analysis of the deposited data

How the results depend on the processing

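In Trex1-/- PBS against WT, all 8 genes kept their call under each of 19 alternatives, leaving out each library included (8 to 8 called). In SN-011 against PBS, where 0 were called, 5 were called with no filter beyond 1 read, 2 by edgeR's exact test and 4 by the DESeq2 Wald test, and 0 to 1 on leaving out a library (1 without SN-011 replicate 2). In SN-011 against WT, where 4 were called, 7 were called with the Y-linked term, 1 in a fit of only the 6 libraries and 1 to 6 on leaving out a library. No change of sign occurred. Over all genes, 313, 0 and 213 were called in the 3 comparisons, against 707, 127 and 607 with no filter, 683, 127 and 601 by edgeR's exact test, 726, 183 and 806 by the DESeq2 Wald test, and 198, 0 and 656 with the Y-linked term. Fits of only the 6 libraries gave 751 for Trex1-/- PBS against WT and 43 for SN-011 against WT, and leaving out a library gave 153 to 774, 0 to 519 and 38 to 376. Of the 32 targets, called 31, 0 and 26 times, 19, 15 and 18 were called in SN-011 against PBS with no filter, by the exact test and by the Wald test, and 14 in SN-011 against WT with only the 6 libraries. Leaving out a library gave 29 to 31, 0 to 13 and 10 to 28. The cause was not tested.

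Nothing in the labels says that replicate numbers pair the libraries, so that the numbers were not treated as pairs. Whether they do pair them is not settled. The r of the deviations of same-numbered libraries ran from -0.345 to 0.312 over 9 pairs and was above 0.1 in 4, among them all 3 pairs of replicate 1. With the number as a replicate block, 8, 0 and 4 of the genes and 312, 0 and 231 of all genes were called. For the upstream motif, 0 of 4 genes held the form with 2 spacer bases, 1 the form with 3 and 3 the shorter core.

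Depth limits the interferon genes and Ifi27l2b, Ifi44l, Rtp1 and Rtp2, which had too few counts to test. Sex, and purchase against in-house breeding, cannot be told apart from the groups in full.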
